A study of Mus musculus with 6 samples.

Results

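Genes of alternatively activated and tissue-resident macrophages were followed in mouse tumours with and without Kindlin-1. They were chosen by symbol, and all 10 listed genes (Retnla, Mrc1, Chil3, Arg1, Cd163, Folr2, Lyve1, Mgl2, Clec10a and Timd4) were found among the 37991 genes of the count files. RNA sequencing covered 3 Kindlin-1 Null libraries and 3 Kindlin-1 WT libraries, each made from total RNA of a tumour of cutaneous squamous cell carcinoma (cSCC), a cancer of skin keratinocytes. Kindlin-1 is the product of Fermt1, and it helps to activate integrins by binding the tails of their beta subunits. The labels put the knockout on the cSCC tumours. Mouse strain, age, sex, the number of clones and how the tumours were raised are not given there. They give mouse number 240 to Null library 1 and mouse number 242 to Null libraries 2 and 3. They give mouse number 238 to WT libraries 1 and 2 and mouse number 239 to WT library 3. The number of Null library 3 is that of its title, and its file name differs. The titles add the letter L to 1 library and R to the other of each shared number, and R to the other 2 libraries. The labels do not say what the letters or a shared number mean, so p-values measure the spread between these libraries, which may be partly technical.

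Macrophages exposed to interleukin-4 or interleukin-13 signal through the shared receptor chain IL-4R alpha to the transcription factor STAT6 and take on the alternatively activated state, studied in wound healing, helminth infection and tumours. In mice, Retnla (the secreted protein RELM alpha), Chil3 (the chitinase-like protein Ym1) and Arg1 (arginase 1, which splits arginine into ornithine and urea) are the classical products of that state, and Mrc1, Mgl2 and Clec10a encode lectins on such cells. Lyve1 (a hyaluronan receptor), Folr2 (folate receptor beta), Timd4 (a receptor for phosphatidylserine on dying cells) and Cd163 (the haemoglobin-haptoglobin scavenger receptor) mark macrophages that settle in tissues and sit near vessels. In bulk tumour RNA, fewer cells of a type and less RNA per cell cannot be told apart.

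Retnla had the largest absolute log2 fold change of the 9 tested members, so the 250 bases before its start are shown, beside those of Retnlg, its relative at the same locus, and of Mrc1, whose level differed little between the groups. The sequences are from RefSeq, build GRCm38.p6, all on the plus strand: Retnla at chr16:48842359-48842608, Retnlg at chr16:48872358-48872607 and Mrc1 at chr2:14229164-14229413. Capitals mark matches, on either strand, to a STAT6-type palindrome (TTCNNNNGAA), a C/EBP-type motif (TTGCNNAA) and the core of PU.1 sites (GAGGAA). PU.1 is a factor of the myeloid lineage.
Retnla: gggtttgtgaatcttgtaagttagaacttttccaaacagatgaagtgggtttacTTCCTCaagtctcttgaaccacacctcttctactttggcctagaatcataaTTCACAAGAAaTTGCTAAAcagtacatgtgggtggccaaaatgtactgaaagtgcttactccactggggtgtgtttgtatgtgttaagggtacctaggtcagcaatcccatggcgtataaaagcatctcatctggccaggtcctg
Retnlg: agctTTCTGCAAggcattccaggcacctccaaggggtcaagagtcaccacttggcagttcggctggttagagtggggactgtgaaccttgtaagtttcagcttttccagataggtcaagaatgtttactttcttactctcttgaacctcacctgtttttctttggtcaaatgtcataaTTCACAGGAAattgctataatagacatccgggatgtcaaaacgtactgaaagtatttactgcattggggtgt
Mrc1: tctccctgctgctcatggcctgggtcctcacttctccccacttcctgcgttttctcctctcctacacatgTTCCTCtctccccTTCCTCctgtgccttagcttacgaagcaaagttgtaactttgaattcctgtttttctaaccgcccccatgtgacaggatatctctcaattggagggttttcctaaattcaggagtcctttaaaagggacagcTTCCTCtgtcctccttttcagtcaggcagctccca
The Retnla window held 1 STAT6-type match, TTCACAAGAA, from 145 to 136 bases before the start. A C/EBP-type match, TTGCTAAA, lay 1 base downstream of it, and a PU.1-type match lay further upstream, with no overlap between them. The Retnlg window held the STAT6-type match TTCACAGGAA from 72 to 63 bases before the start. Of 32851 promoter windows of the same length, 5.85% held the STAT6-type motif, 9.56% the C/EBP-type motif and 23.3% the PU.1-type motif. Promoters were found for 7 of the 10 genes in 8 windows, Folr2 having 2, and of these only the Retnla window matched the STAT6-type letters. The PU.1-type letters were in 3 of the 8 windows, those of Retnla, Mrc1 and Mgl2. The motifs were picked with the Retnla letters in view, and a match is a description of the letters alone.

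Depth differed widely and bounds what the low genes can show. Reads in genes came to 1138318, 31487255 and 5226493 in Null libraries 1 to 3, and to 1283566, 161711 and 15529242 in WT libraries 1 to 3. Levels are given in CPM, the reads of a gene scaled to the library's reads in genes after TMM, a factor that evens out composition. WT library 2 had the fewest reads and was separated from the other 5 libraries by the leading principal component of log2 CPM (56.9% of the variance). Its floor of 3 counts lay at 18.4 CPM. Fermt1 went with the labels, with 0, 2 and 2 reads in Null libraries and 16, 2 and 1040 reads in WT libraries. Of 12 keratinocyte genes, Krt1, Ivl and Dsg3 had 0 reads in all 6 libraries, and Krt5 lay between 0 and 0.393 CPM in Null tumours and between 0 and 3.9 CPM in WT tumours. Krt14, a keratin of basal keratinocytes, fell to 8.6 ± 3.03 CPM in Null, against 36.2 ± 9.49 CPM in WT libraries (SD, n = 3 each; log2 fold change -2.04, SE 0.38, edgeR adjusted p = 0.01), and its adjusted p was 0.0502 in limma-voom with the mouse number treated as random. The 12 genes summed to 141 to 174 CPM in Null and 116 to 166 CPM in WT libraries. Of the 5 tested, 3 had a positive and 2 a negative log2 fold change, with a median of 0.03, and only Krt14 was called. Trp63, of the same list, stood at 22.9 ± 4.17 CPM in Null and 15 ± 9.06 CPM in WT libraries (log2 fold change 0.53, SE 0.43). The share of reads in no gene was 5.84%, 5.55% and 4.63% in Null libraries and 7.15%, 8.75% and 12% in WT libraries, with no overlap. Lars2, a mitochondrial leucyl-tRNA synthetase gene, stood at 429 to 1659 CPM in Null and 4742 to 17955 CPM in WT libraries. The part of these differences in the results was not tested.

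The macrophage genes did not move together. Retnla was far lower in Null tumours, and Lyve1 and Folr2 were higher. Timd4 had a larger log2 fold change (1.34) than Folr2 (1.15), but its groups overlapped and it was not called. The remaining members differed by less or were too scarce to tell. Of the 10 genes, 9 passed the filter on low counts and 3 of them (Retnla, Lyve1 and Folr2) were among the genes called at an adjusted p of 0.05 by edgeR's quasi-likelihood test over all 11887 genes. The background of such calls was 5.79% of all genes tested, 2.26% higher and 3.52% lower in Null tumours. The split of higher to lower calls was 269 to 419, but 533 to 428 in limma-voom with the mouse number treated as random and 421 to 434 in edgeR without WT library 1. The CPM ranges of the groups did not overlap for 4 of the 9 genes (these 3 and Mrc1), against 30.5% of all genes tested. The members were proposed with results of this contrast known, so their fold changes and calls describe them and support nothing. The median log2 fold change, Null minus WT, was 0.32 over the 9 tested members and 0.01 over all genes tested.

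**Figure D1:**
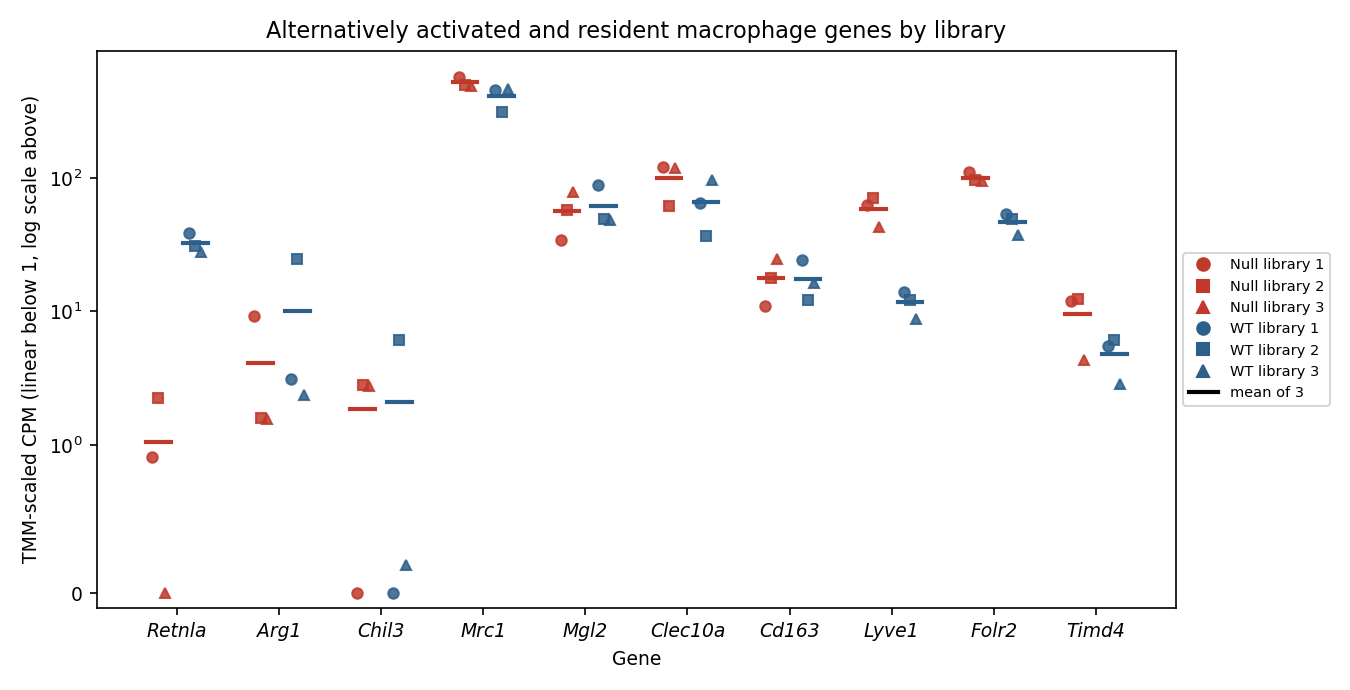
TMM-scaled CPM (symmetric log axis, linear below 1) of the 10 genes in each library, Null in red left of WT in blue, with bars at the mean of 3 libraries. Retnla stands at or under 2.25 CPM in the Null libraries and at or above 28 CPM in the WT libraries, while Lyve1 and Folr2 stand higher in all Null libraries.

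Among the products of alternative activation, Retnla was low in all 3 Null libraries, and in Null libraries 1 and 3 it lay under the floor of 3 counts. Its reads numbered 1, 71 and 0 in Null libraries 1 to 3, or 0.921, 2.25 and 0 CPM, against 50, 5 and 449 reads, or 39, 30.7 and 28 CPM, in WT libraries 1 to 3. All WT libraries were high and close to each other in spite of a wide range of depth, and all Null libraries were low. The mean was 1.06 ± 1.13 CPM in Null tumours and 32.6 ± 5.74 CPM in WT tumours (SD, n = 3 each), and the fitted log2 fold change was -4.46 (SE 0.62), or 22.1-fold lower. Pooled over TMM-scaled library sizes, Retnla had a level of 1.91 CPM in Null tumours and 28.9 CPM in WT tumours. The 95% exact Poisson intervals were 1.49 to 2.4 CPM and 26.4 to 31.5 CPM. Of the 72 Null reads, 71 lay in Null library 2. Null library 3, which carries the same mouse number in its title, had 0 reads where the level of Null library 2 would give 11.4. Its 0 reads allow up to 0.59 CPM. Without Null library 2 a single Null read was left, and the ratio of Null to WT was 0.00562 (95% exact interval 0.000142 to 0.0314). The fitted log2 fold change was then -7.38. With all libraries kept it was -3.83 in limma-voom with the mouse number treated as random (adjusted p = 0.0455).

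The relatives of Retnla were nearly silent. Retnlg, which encodes a resistin-like protein of neutrophils and bone marrow, had 1, 10 and 5 reads in Null libraries and 0 reads in all 3 WT libraries, and it fell under the filter on low counts. Retnlb, the intestinal family member, had 0 reads in all 6 libraries. Of these 3 relatives only Retnla had enough reads to be tested.

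Arg1 and Chil3 were scarce in both groups. Arg1 had 10, 50 and 8 reads in Null libraries, or 9.21, 1.58 and 1.57 CPM, and 4, 4 and 38 reads in WT libraries, or 3.12, 24.6 and 2.37 CPM. The groups overlapped, and the highest value in each came from a shallow library, WT library 2 resting on 4 reads. The log2 fold change of Arg1 was -0.48 with an SE of 0.97, too wide for a direction, and its sign turned in 3 of the alternative fits, reaching 0.19. Arg2, the mitochondrial arginase, stood at 0.02 (SE 0.7) on the same log2 scale. Chil3 had 0, 89 and 14 reads in Null libraries and 0, 1 and 3 reads in WT libraries, and it did not pass the filter. Pooled over TMM-scaled library sizes, Chil3 had 2.73 CPM in Null tumours (exact 95% interval 2.23 to 3.31) and 0.229 CPM in WT tumours (0.0624 to 0.586). By library, its TMM-scaled CPM was 0, 2.82 and 2.75 in Null and 0, 6.14 and 0.187 in WT libraries. The groups overlapped, the highest value being 1 read in WT library 2. Without WT library 3 the ratio of Null to WT for Chil3 was 3.94 (95% exact interval 0.692 to 157), with 1 WT read left. The close copy Chil4 had 0 reads in all 6 libraries. Reads that match both copies can be dropped or split by the counting, so the single Chil3 value is uncertain.

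Of the lectin receptors, Mrc1 was the most abundant member in both groups. Mrc1, the mannose receptor CD206, stood at 578, 502 and 489.5 CPM in Null libraries 1 to 3 and at 459, 313 and 464 CPM in WT libraries 1 to 3. The Null values all lay above the WT values, by a small margin, with means of 523 ± 47.6 and 412 ± 85.7 CPM (SD, n = 3 each). Its log2 fold change was 0.32 (SE 0.26) and it was not called. The paralogous galactose-type lectins Mgl2 (CD301b) and Clec10a (CD301a) overlapped between the groups. Mgl2 stood at 34.1, 57.8 and 79.1 CPM in Null libraries and at 88.2, 49.1 and 48.3 CPM in WT libraries, with a log2 fold change of -0.12 (SE 0.34). Clec10a stood at 121, 61.8 and 119 CPM in Null libraries and at 65.6, 36.9 and 97.7 CPM in WT libraries, with a log2 fold change of 0.41 (SE 0.33). Both genes thus varied about as much within a group as between groups.

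Mrc2, the fibroblast-type relative of the mannose receptor, was called lower in Null tumours, at 15.6 ± 6.09 CPM in Null and 60.2 ± 22.6 CPM in WT libraries (SD, n = 3 each; log2 fold change -1.76, SE 0.36, edgeR adjusted p = 0.0159). Its call was lost without Null library 1 (edgeR adjusted p = 0.0776) or Null library 3 (0.0566) and in limma-voom with the mouse number treated as random (0.0964). Of the 17 tested genes in a list of other C-type lectin and scavenger receptors, 1 rose and 2 fell, with a median of 0.19. Clec4n (Dectin-2, a receptor for fungal mannans) rose by 1.18 log2 units and Clec12a, an inhibitory myeloid lectin, fell by 1.42. The Clec4n call was lost without any library except WT library 1 (highest edgeR adjusted p = 0.154), and its log2 value was 0.78 without WT library 3. The Clec12a call was lost without Null library 1, Null library 3 or WT library 3 (0.111, 0.128 and 0.165), with shared mouse numbers summed (0.0638) and in limma-voom with the mouse number treated as random (0.0814). Summing shared mouse numbers also ended the Clec4n call (0.102).

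Among the markers of resident macrophages, Lyve1 was higher in every Null library. It stood at 62.6, 70.8 and 43.1 CPM in Null libraries 1 to 3, against 14.1, 12.3 and 8.74 CPM in WT libraries 1 to 3. The lowest Null value was about 3 times the highest WT value. The means were 58.8 ± 14.2 and 11.7 ± 2.71 CPM (SD, n = 3 each), and the log2 fold change was 2.48 (SE 0.34), or 5.56-fold. The value of WT library 2 rests on 2 reads, and without that library the gene was still called. Across all alternatives run, the log2 fold change of Lyve1 lay between 2.08 and 2.72.

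Folr2 followed with a smaller difference. It stood at 111, 96.3 and 94.4 CPM in Null libraries and at 53.9, 49.1 and 37.2 CPM in WT libraries, with no overlap. The means were 101 ± 9.34 and 46.7 ± 8.6 CPM (SD, n = 3 each), and the log2 fold change was 1.15 (SE 0.26), or 2.22-fold. Folr2 was no longer called without Null library 1, Null library 2, Null library 3 or WT library 3, or with libraries of a shared mouse number summed, where its log2 values were 1.07, 1.15, 1.18, 0.91 and 1.2. In a later annotation (GENCODE M21) 975 exon bases of Folr2 overlap Gm10602 on the other strand, which had 0, 8 and 2 reads in Null and 0, 0 and 3 reads in WT libraries. The sources used here do not say whether the counting used strand, without which reads of the pair cannot be told apart. Folr1, the epithelial folate receptor, had 0, 1 and 7 reads in Null libraries and 0 reads in all 3 WT libraries.

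Timd4 pointed the same way on the log2 scale, with more spread. It stood at 12, 12.5 and 4.33 CPM in Null libraries and at 5.47, 6.14 and 2.87 CPM in WT libraries. Null library 3 lay among the WT values, the WT library 2 value was 1 read, and the log2 fold change of 1.34 (SE 0.57) was not called. Its log2 fold change was 0.75 without WT library 3 and 1.92 in limma-voom with the mouse number treated as random. Cd163 did not separate the groups, at 11.1, 17.7 and 24.8 CPM in Null libraries and 24.2, 12.3 and 16.4 CPM in WT libraries (log2 fold change -0.01, SE 0.37). Cd163 is often read together with Lyve1 and Folr2, whose groups did not overlap.

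**Figure D2:**
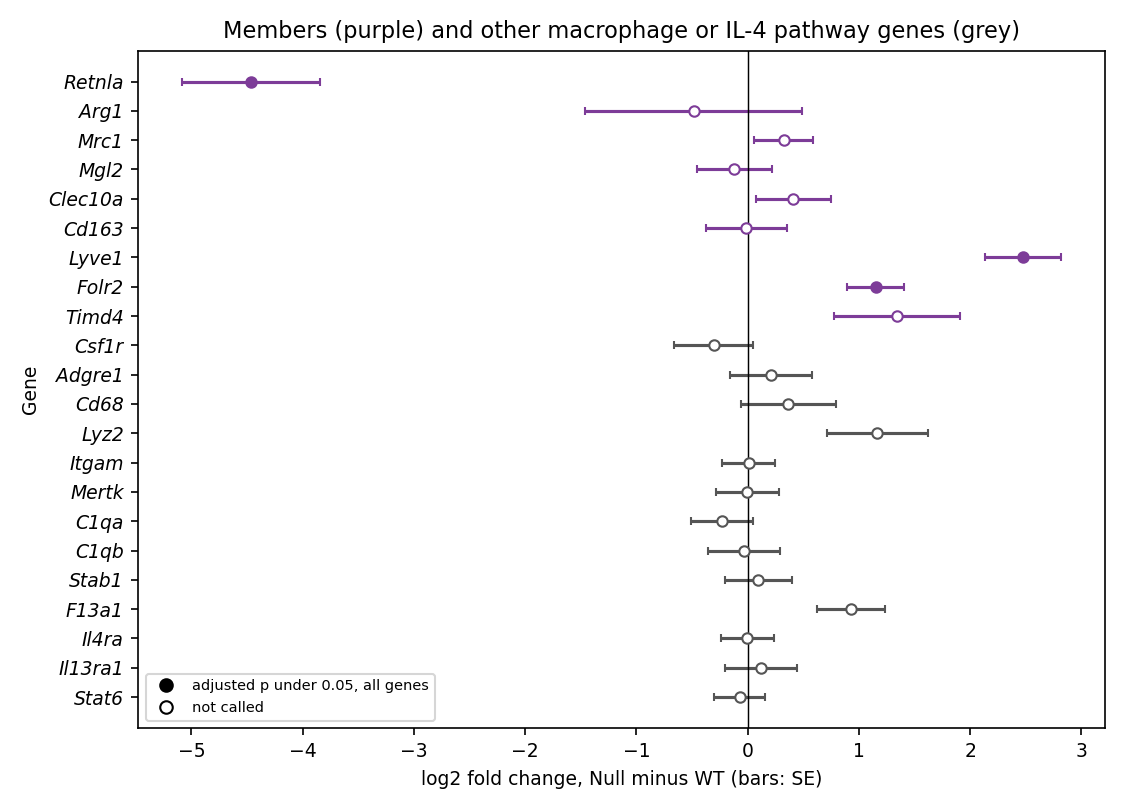
Log2 fold change, Null minus WT, with SE bars for the 9 tested members (purple) and for 13 selected macrophage and IL-4 receptor pathway genes (grey), which leave out the called Jak3 and Tslp; filled points are called over all genes. Retnla stands at -4.46 and Lyve1 at 2.48, while the 13 grey genes lie between -0.31 and 1.17 and none of the 13 is called.

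Levels of different genes can be compared only per length, as TMM-scaled CPM divided by the kilobases of exon (RPKM). In Null tumours the order was Mrc1 (82.1 ± 7.47 RPKM), Folr2 (65.2 ± 6.04), Clec10a (34.6 ± 11.5), Mgl2 (27.2 ± 10.8) and Lyve1 (20.2 ± 4.88), with Timd4, Cd163, Arg1, Retnla and Chil3 at or under 4.42 RPKM. In WT tumours it was Mrc1 (64.7 ± 13.4 RPKM), Retnla (54.4 ± 9.59), Folr2 (30.2 ± 5.56), Mgl2 (29.6 ± 10.9) and Clec10a (23 ± 10.5), with the other 5 members at or under 4.5 RPKM (SD, n = 3 libraries throughout). The RPKM of Retnla was second only to Mrc1 in WT tumours and ninth of 10 in Null tumours. Neighbours such as Clec10a, Mgl2 and Lyve1 in Null tumours, and Mrc1 and Retnla or Folr2, Mgl2 and Clec10a in WT tumours, lay within each other's spread.

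The general macrophage genes did not show the Retnla or Lyve1 pattern. Of 21 tested pan-macrophage and monocyte genes, 0 were called by edgeR, with 4 at an unadjusted p under 0.05, 0 called by DESeq2 and 2 called higher by limma-voom when the mouse number was treated as random. Without WT library 1, 1 gene was called higher by edgeR. Their median log2 fold change was 0.03. Csf1r, the receptor for colony-stimulating factor 1, stood at 344 ± 132 CPM in Null and 433 ± 143 CPM in WT libraries. Adgre1, which encodes F4/80, stood at 198 ± 18.5 and 182 ± 93.3 CPM, and Cd68, a lysosomal glycoprotein, at 131 ± 27.8 and 113 ± 65 CPM. The myeloid integrin Itgam (log2 fold change 0.01, SE 0.24) and the efferocytosis receptor Mertk (0, SE 0.29) were not called, and lysozyme Lyz2 stood at 1.17 (SE 0.46, edgeR adjusted p = 0.137). WT library 3 was lower than the other libraries for the summed list, at 3656 CPM against 5745 and 6174 CPM in WT libraries 1 and 2, and Null libraries lay between 5738 and 7154 CPM.

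Each member was therefore also set against the reads of these 21 genes in the same library. Lyz2 made up a large and uneven part of their reads. It stood at 4247, 2210 and 3225 CPM of the summed 7154, 5738 and 7047 CPM in Null libraries. In WT libraries it stood at 1643, 2193 and 517 CPM of the summed 5745, 6174 and 3656 CPM. Retnla came to 0.129, 0.392 and 0 reads per 1000 pan-macrophage reads in Null libraries and to 6.8, 4.98 and 7.66 in WT libraries. Lyve1 came to 8.76, 12.3 and 6.11 in Null libraries and to 2.45, 1.99 and 2.39 in WT libraries. Folr2 came to 15.6, 16.8 and 13.4 in Null libraries and to 9.38, 7.96 and 10.2 in WT libraries. The groups of these 3 genes stayed apart on this scale, and those of the other 7 members overlapped. The share of all genes that stayed apart on this scale was not computed, and in CPM it was 30.5%. Mrc1, which did not overlap in CPM, came to 79.2 ± 9.13 in Null and 85.9 ± 38.5 reads per 1000 in WT libraries (SD, n = 3 each). The ratio of Null to WT was 0.0268 for Retnla, 3.99 for Lyve1 and 1.66 for Folr2. Against Csf1r, Cd68 or Adgre1 alone the ratio lay between 0.0222 and 0.0422 for Retnla, between 3.55 and 7.14 for Lyve1 and between 1.47 and 3.06 for Folr2. The Folr2 groups overlapped against Cd68 or Adgre1 alone, where WT library 3 had the highest of the WT ratios.

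**Figure D3:**
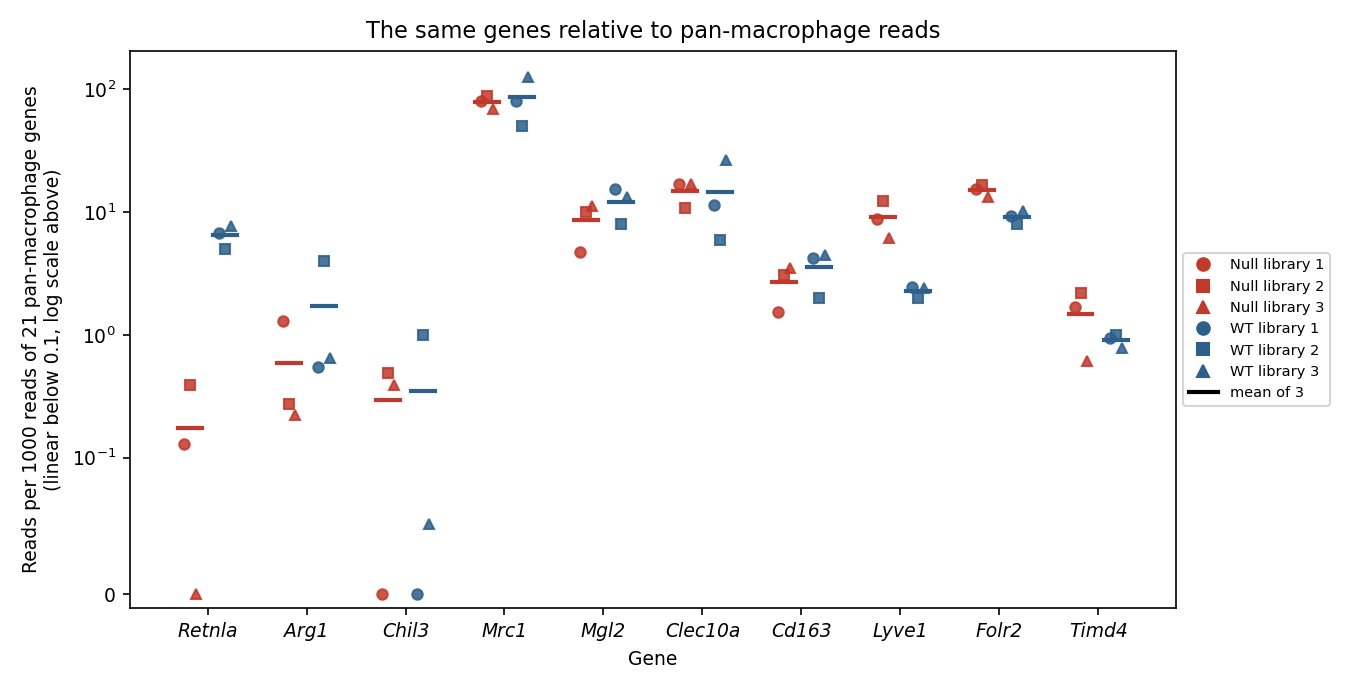
Reads of each gene per 1000 reads of 21 pan-macrophage genes in the same library (symmetric log axis, linear below 0.1), Null in red left of WT in blue, with bars at the mean of 3 libraries. Retnla (mean 0.174 in Null and 6.48 in WT), Lyve1 (9.07 and 2.28) and Folr2 (15.3 and 9.17) remain separated between the groups.

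Other genes of resident macrophages were mostly not called. Of 21 tested, 2 rose and 0 fell by edgeR, with 7 at an unadjusted p under 0.05 and a median log2 fold change of 0.13. Slc40a1 (ferroportin, the iron exporter) stood at 24.1 ± 10.3 CPM in Null and 8.56 ± 8.62 CPM in WT libraries (SD, n = 3 each), with the groups overlapping at WT library 2 on 3 reads (log2 fold change 2.76, SE 0.57, edgeR adjusted p = 0.0166). Fcna (ficolin A, a lectin that starts complement activation) rose to 47.4 ± 19.9 CPM in Null, against 13.3 ± 5.54 CPM in WT libraries (2.17, SE 0.43, edgeR adjusted p = 0.0131). The Slc40a1 call was lost without Null library 3 or WT library 3 (log2 2.36 and 1.92, adjusted p = 0.0701 and 0.133), and the Fcna call without Null library 1 or WT library 3 (1.81 and 1.58, adjusted p = 0.0614 and 0.112). The complement genes C1qa (-0.23, SE 0.28) and C1qb (-0.03, SE 0.33), Stab1 (0.1, SE 0.31) and F13a1 (0.93, SE 0.31) were not called by edgeR. F13a1 was called in DESeq2 and in limma-voom with the mouse number treated as random. The count of resident genes called higher was 0 without WT library 3 and 5 without WT library 1. It was 5 in DESeq2, 5 in that limma-voom fit, 4 without the filter and 3 with shared mouse numbers summed. Without Null library 3, 1 was called higher and 1 lower. Vsig4, a complement receptor of resident macrophages that did not pass the filter and was picked after its values were seen, had 12, 74 and 11 reads in Null and 1, 0 and 0 reads in WT libraries.

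The genes of the IL-4 and IL-13 pathway gave little difference at the receptor or at STAT6. Il13 had 0 reads in all 6 libraries, and Il4 had 0, 1 and 3 reads in Null and 0 reads in all 3 WT libraries. Il4ra stood at 308 ± 25.6 CPM in Null and 308 ± 7.3 CPM in WT libraries (log2 fold change 0, SE 0.24), and Stat6 at 176 ± 7.56 and 183 ± 15.4 CPM (-0.07, SE 0.23). Il13ra1 stood at 0.12 (SE 0.32) on the log2 scale. Of 14 tested pathway genes 1 rose and 1 fell, with a median of 0.06. Jak3, the kinase bound to the common gamma chain, fell to 26.9 ± 10.8 CPM in Null, against 76.2 ± 28.1 CPM in WT libraries (-1.52, SE 0.33, edgeR adjusted p = 0.0215). Tslp, an epithelial cytokine, rose to 10.7 ± 0.542 CPM in Null, against 3.39 ± 2.68 CPM in WT libraries (1.94, SE 0.49, edgeR adjusted p = 0.039). The Jak3 call was lost without Null library 1, Null library 3 or WT library 3 (adjusted p = 0.107, 0.0803 and 0.132) and in limma-voom with the mouse number treated as random (0.051). The Tslp call was lost without any library except WT library 2 (highest adjusted p = 0.161), and its log2 value was 2.87 without WT library 3. It was also lost with shared mouse numbers summed (0.0833), in DESeq2 (0.116) and in limma-voom with the mouse number treated as random (0.068).

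Other products of alternative activation were mostly not called. Of 15 tested genes 0 rose and 1 fell, with a median log2 fold change of 0.09. The gene that fell was Slc7a2, a cationic amino acid transporter that carries arginine, at 0.495 ± 0.431 CPM in Null and 6.68 ± 4.92 CPM in WT libraries (-2.78, SE 0.68, edgeR adjusted p = 0.0339). It passed the filter in 3 of the 6 fits that left out 1 library and was called in 1 of them. Its call was lost without Null library 1 or WT library 2 (adjusted p = 0.107 and 0.0642), with shared mouse numbers summed (0.0802) and in DESeq2 (0.0717). Of 11 tested genes of classical activation 1 rose, Ptgs2 (cyclooxygenase 2), at 127 ± 90.2 CPM in Null and 8.6 ± 3.41 CPM in WT libraries (3.83, SE 0.6, edgeR adjusted p = 0.00409). Without WT library 3 its adjusted p was 0.157, and without Null library 1 its log2 value was 3.16. Nos2, the inducible nitric oxide synthase, had 3, 188 and 16 reads in Null and 0, 0 and 75 reads in WT libraries and did not pass the filter. Il1b (1.35, SE 0.62) and Tnf (-0.63, SE 0.43) were not called on the log2 scale.

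Of 16 genes often read as tumour-associated macrophage markers, 4 rose and 1 fell, with a median of 0.34. Those that rose were the tetraspanin gene Cd9 (1.75), Gpnmb (1.54), the galectin gene Lgals3 (1.38) and the haem oxygenase gene Hmox1 (1.36), and the lipoprotein lipase gene Lpl fell (-1.58). Without Null library 1 none of the 16 was called by edgeR, with adjusted p of 0.0806, 0.0652, 0.113, 0.106 and 0.0811 in the order named. Lgals3 and Hmox1 also lost their calls without Null library 3 (0.076 and 0.147) and WT library 3 (0.0624 and 0.132), Lgals3 without WT library 2 (0.0538) and with shared mouse numbers summed (0.059), Hmox1 without WT library 1 (0.0586), and Lpl without Null library 3 (0.059) and WT library 1 (0.0543). Tumour cells and other stroma can express these genes. Csf1, the growth factor of macrophages, fell to 202 ± 62.6 CPM in Null, against 462 ± 36.5 CPM in WT libraries (log2 fold change -1.18, SE 0.29, edgeR adjusted p = 0.0333). It was the 1 gene called among 11 tested genes of macrophage growth and recruitment. The Csf1 call was lost without Null library 1, Null library 3, WT library 1 or WT library 2 (adjusted p = 0.107, 0.102, 0.061 and 0.0703) or with shared mouse numbers summed (0.125).

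Markers of other cells moved with the same contrast and are given beside the members. The summed CPM of 14 skeletal muscle genes was 73.7, 120.1 and 45.1 in Null libraries and 1590, 799 and 579 in WT libraries, and 13 of 13 tested were called lower. In limma-voom with the mouse number treated as random 7 of them were called, in edgeR with shared mouse numbers summed 10, and without 1 library 9 to 13. The summed CPM of 10 adipocyte genes was 94, 43.9 and 67.3 in Null libraries and 263, 227 and 100.04 in WT libraries, and 3 of 4 tested (Lpl, Car3 and Cfd) were called lower. The count was 1 without Null library 1, Null library 3 or WT library 1, and 2 without WT library 2 or in limma-voom with the mouse number treated as random. Car3, a carbonic anhydrase gene of fat and muscle, had a log2 fold change of -3.55, which was -2.33 without WT library 1, -4.52 without Null library 2, -4.29 without WT library 3 and -1.27 in limma-voom with the mouse number treated as random. That of Cfd was -4.69, and it was -6.12 without Null library 2. Of the defining adipocyte genes, Adipoq had 0, 18 and 0 reads in Null and 15, 0 and 1 reads in WT libraries, Plin1 had 0 reads in all Null libraries and 1 in WT libraries, and Cfd (adipsin) stood at 0, 1.2 and 0.393 CPM in Null and 35.1, 30.7 and 12.4 CPM in WT libraries. Retnla is also known from adipose tissue of mice. Within the WT group Retnla and both lists were highest in library 1 and lowest in library 3. Null library 2, which held 71 of the 72 Null reads of Retnla, was the highest Null library for the muscle list and the lowest for the adipocyte list. The part of these tissues in the Retnla difference was not tested.

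**Figure D4:**
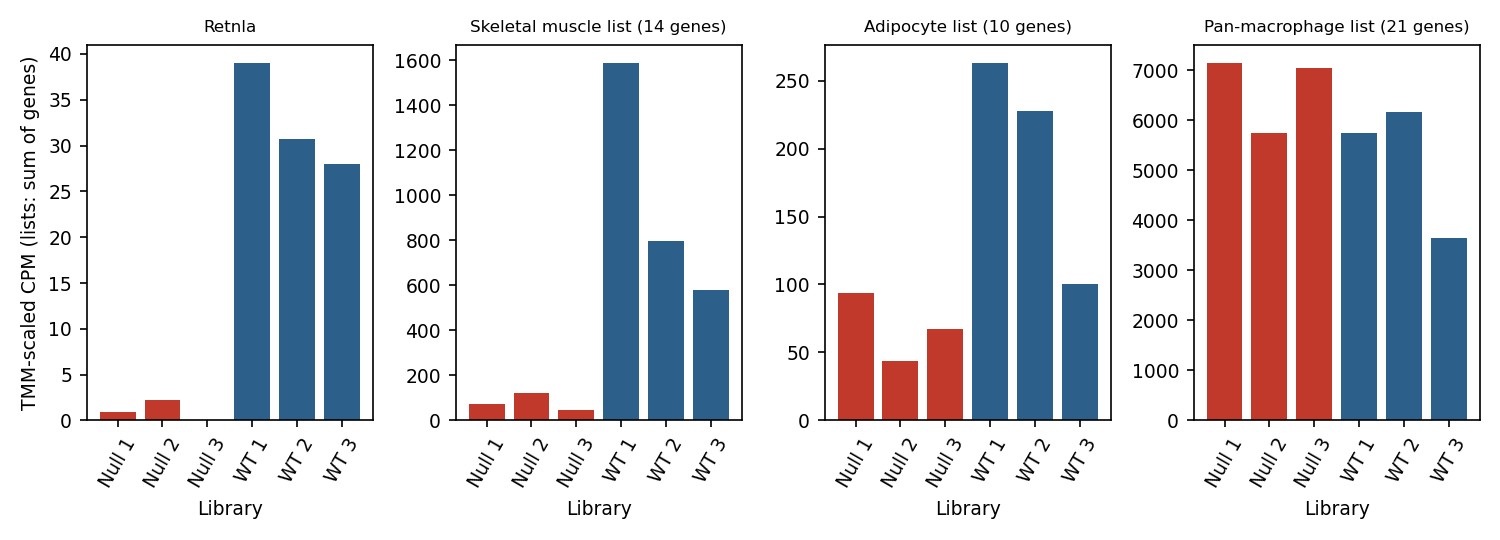
TMM-scaled CPM of Retnla and summed CPM of 14 skeletal muscle, 10 adipocyte and 21 pan-macrophage genes in each library, Null in red and WT in blue. Retnla, the muscle list (45.1 to 120.1 in Null and 579 to 1590 in WT) and the adipocyte list are lower in all Null libraries, while the pan-macrophage list overlaps.

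The genes most like Retnla were taken as those with the highest Pearson correlation of log2 CPM over the 6 libraries. They were Xirp2 (r = 0.993), Mybpc1 (0.992), Tcap (0.992), Mmp23 (0.991) and Cemip (0.99), all lower in Null tumours. The correlations rest on the difference between the groups and share the libraries' depths. Xirp2, Mybpc1 and Tcap encode proteins of striated muscle, and Mmp23 and Cemip a metalloproteinase and a hyaluronan-binding protein.

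Lyve1 is also a marker of lymphatic endothelium. Of 8 other lymphatic genes 4 were tested and 0 were called by edgeR, with 2 at an unadjusted p under 0.05, 0 called by DESeq2 and 0 by limma-voom. In edgeR 1 was called lower without Null library 2, with RLE size factors or without the filter. Prox1, the defining transcription factor of that cell type, had 0, 4 and 1 reads in Null and 0 reads in all WT libraries, and Mmrn1 had 0 reads in all 6 libraries. Flt4, the receptor VEGFR-3, stood at 2.92 ± 0.973 CPM in Null and 7.25 ± 4.42 CPM in WT libraries (log2 fold change -0.66, SE 0.55, edgeR adjusted p = 0.473). The summed CPM of 8 lymphatic genes other than Lyve1 was 61.5 to 83.8 in Null and 80.4 to 97.6 in WT libraries. The part of lymphatic endothelium in the Lyve1 difference was not tested. Mast cell genes were higher in the same Null libraries, with a summed CPM of 2940, 2188 and 6549 in Null and 1292, 1302 and 521 in WT libraries, and 8 of 10 were called. That count was 1 without Null library 1 or Null library 3 and 2 without WT library 2 or WT library 3. It was 3 in limma-voom with the mouse number treated as random, and 5 with shared mouse numbers summed, without the filter or with a stricter one. The part of mast cells in the Lyve1 or Folr2 difference was not tested.

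Some monocyte genes were higher as well. Of 9 tested, 4 rose and 1 fell, with a median of 0.98. Plac8 rose to 39.6 ± 5.76 CPM in Null, against 8.29 ± 5.04 CPM in WT libraries (log2 fold change 2.39, SE 0.43, edgeR adjusted p = 0.00792), with 1.59 without WT library 3 and 3.03 without WT library 1. The other 3 were Nr4a1 (4.32), Ms4a4c (1.63) and S100a4 (1.26), and the gene that fell was haptoglobin, Hp (-2.59). Each of these 4 lost its call in at least 4 of the 6 fits that left out 1 library, with highest edgeR adjusted p of 0.407, 0.189, 0.153 and 0.186. The log2 value of Nr4a1 was 3.68 without Null library 3, and that of Hp was -1.43 without WT library 1 and -3.36 without WT library 3. With shared mouse numbers summed Ms4a4c, S100a4 and Hp lost their calls (0.0711, 0.192 and 0.163), and with the mouse number treated as random in limma-voom Nr4a1 and Hp did (0.229 and 0.231). Among 15 tested dendritic cell genes 1 rose and 1 fell, Ccr7 (1.39, edgeR adjusted p = 0.04998) and Itgax (-1.76, edgeR adjusted p = 0.0111). Ccr7 lost its call whichever library was left out, with shared mouse numbers summed (0.172) and in DESeq2 (0.209), and Itgax without WT library 3 (0.068). Mgl2 and Clec10a are also expressed by dendritic cells. Of 6 tested neutrophil genes 1 rose and 0 fell, with a median log2 fold change of 0.49. The gene that rose was S100a9 (2.84, SE 0.48, edgeR adjusted p = 0.00548), and it lost its call without WT library 3 (0.0634).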

How the data were processed

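RNA was sequenced in 6 libraries of mouse tumours, 3 Kindlin-1 Null and 3 Kindlin-1 WT by the genotype label. The deposited files hold raw read counts per Ensembl gene, 1 file per library. Per the submitters' processing notes, TopHat2, Cuffdiff, DESeq2 and build mm9 were used, with no role or version. The sources used here do not name the counter, its strand setting or the annotation. Reads with several alignments (32.9% to 40.0%), in no gene (4.63% to 5.84% in Null, 7.15% to 12% in WT) or ambiguous (1.72% to 2.11%) stayed out of library sizes.

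Symbols were matched by Ensembl identifier for 32919 of 37991 genes (86.6%), and exon lengths came from GENCODE M21, a later build. Null was compared with WT in R 4.3.3 with edgeR 4.0.16 (TMM, default filter on low counts, robust quasi-likelihood test, Benjamini-Hochberg at 0.05). The code was also run on simulated data with independent libraries. That run cannot show how the test behaves where libraries share a mouse number. DESeq2 1.42.0 and limma 3.58.1 served as alternatives. Each SE is the log2 fold change over the square root of F. Intervals and floors (3 counts) cover counting error only, since reads carry no molecular identifiers. With 3 libraries a group, exact permutation has a smallest p of 0.1, so single values were not tested. The members and lists were chosen with earlier results of these data known. Named genes were all members, preset macrophage, IL-4 pathway and paralog genes, and called genes of the lists. Called genes of the muscle and mast cell lists are not given by name. Lists exclude the members. Replicate numbers follow accession order and only name a library. The mouse number of Null library 3 is from its title. Its file name carries another number, so fits that sum shared mouse numbers or treat the mouse number as random rest on the title. A preset gene is not reported here.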

Additional observations from a re-analysis of the deposited data

How the results depend on the processing

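The number of genes called over all genes was 688, and lay between 179 (without Null library 1) and 855 (without WT library 1) when 1 library was left out, with 225 without Null library 3 and 281 without WT library 3. It was between 484 and 961 under the other size factors, filters, tools and treatments of shared mouse numbers. Of the members, 3 were called, or 2 in the fits without Null library 1, Null library 2, Null library 3 or WT library 3 and with shared mouse numbers summed, where Folr2 was lost. Retnla and Lyve1 were called in all 13 alternatives run. Retnla was close to the cut-off in limma-voom with the mouse number treated as random (adjusted p = 0.0455). No paired analysis was possible because mouse numbers lie within 1 genotype and the labels give no number shared between groups. WT library 2 limits low genes, since 1 read there equals 6.14 CPM.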
